A study of Homo sapiens with 4 samples.

Results

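Double-strand break and crosslink repair was described across 51 listed genes of damage signalling, end resection, homologous recombination, the Fanconi anemia pathway, and end joining, of 18066 genes with reads in the count table. The genes were chosen by name, with earlier results of these data known. All 51 were measured, with between 27 and 110063 counts in every library. Bulk RNA was sequenced from BT-16 and CHLA-266, which are established lines of AT/RT-MYC, a subtype of atypical teratoid/rhabdoid tumor, an embryonal brain tumor marked by loss of *SMARCB1*. Each line gave 1 untreated library and 1 treated library, so that 2 libraries stood on each side and 4 libraries in all. The treated cells received 1 µM doxorubicin, 5 µM etoposide, and 1 µM vincristine on consecutive days, and the culture that grew back after most cells had died was harvested. Untreated cells of both lines received none of these drugs, and all libraries carry the same batch label. A treated library is thus 1 regrown culture of 1 line, and the fit over both lines measures the spread between them.

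Doxorubicin and etoposide trap topoisomerase II on DNA and leave double-strand breaks, whereas vincristine binds tubulin and blocks the mitotic spindle. A break is sensed by the kinase ATM, and single-stranded DNA at stalled forks by the kinase ATR. In S and G2 phase the ends are resected and copied from the sister chromatid by homologous recombination, and the Fanconi anemia pathway unhooks crosslinks between the strands and hands the broken fork to the same machinery. End joining ligates ends without a template and works throughout the cell cycle. Many genes of resection, recombination, and the Fanconi anemia pathway are transcribed together with the genes of DNA replication, through E2F sites in their promoters.

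The libraries held between 49849257 and 75087193 counts, and the treated library was the smaller one in both lines. *SMARCB1* was read at 827 to 1394 counts and *MYC* at 6804 to 14275 counts per library. Of 7 markers of blood, immune, and endothelial cells, 3 (*AIF1*, *CDH5*, *VWF*) were higher in treated libraries at low levels. In BT-16 and CHLA-266 cells, *AIF1* went from 0 and 0 to 27 and 55 counts. *CDH5* went from 6 and 0 to 95 and 58 counts, and *VWF* from 45 and 40 to 405 and 216. *PTPRC* went from 287 and 30 to 167 and 64 counts, so it fell in BT-16 cells, and was not called. *PECAM1*, also not called, went from 13 and 4 to 45 and 44 counts. Summed over all 7 markers, CPM (counts scaled to the TMM-normalized library size) was 5.13 and 1.22 in untreated BT-16 and CHLA-266 cells. The same sum was 13.5 and 8.41 CPM in treated cells. *CD3E* was at 0 counts in 3 libraries, *AIF1* in both untreated and *CD68* in both treated libraries. Olfactory receptor genes, which such cells should not use, served as a floor. The 95th percentile of 335 of these genes was 4.20 and 5.22 counts per kilobase of transcript in untreated BT-16 and CHLA-266 cells and 34.3 and 24.6 in treated cells. In these units, treated *CDH5* was below that level in both lines (23.4 and 14.3). Treated *VWF* was at 45.9 and 24.5, and treated *AIF1* at 41.2 and 84.0. All 51 genes lay above this floor in the untreated libraries, whereas 5 genes were at or below it in at least 1 treated library. These were *EXO1*, *BLM*, *RAD54B*, *XRCC2*, and *EME1*, and *BLM*, *RAD54B*, and *EME1* were at or below it in both. How far reads other than their own transcripts enter these treated levels was not tested. Markers of dividing cells moved in the same direction: 22 of 22 were lower after treatment (median log2 fold change -4.07), with a summed 8140 and 8420 CPM in untreated and 517 and 505 CPM in treated BT-16 and CHLA-266 cells. Their part in the results below was not tested, and in bulk RNA fewer dividing cells and less RNA of a gene per cell cannot be told apart.

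Most of the repair genes had lower RNA levels after treatment, and none was called higher. In edgeR's quasi-likelihood test, 41 of 51 genes (80.4%) were lower at an adjusted p value under 0.05, where 19.1% of all genes tested were lower and 16.1% were higher. The remaining 10 genes (*ATM*, *RNF8*, *RNF168*, *TP53BP1*, *RAD50*, *RAD51B*, *RAD51D*, *SLX4*, *LIG4*, and *NHEJ1*) were not called, and 8 of them had a log2 fold change above 0, while that of *RAD50* and *RAD51D* turned above 0 under upper-quartile normalization, library totals, and a minimum of 10 counts. At an unadjusted p value under 0.05, 1 gene was higher (*TP53BP1*), and DESeq2 called this gene, as did edgeR once the line was blocked, where 17.9% of all genes were called higher. The median log2 fold change was -1.38 over the 51 genes and 0.24 over all genes tested, a distance of -1.62. Of the 51 genes, 20 were called with a log2 fold change under -2, a fall of more than 4-fold that 2.78% of all genes tested showed, and 13 fell more than 10-fold. On the VST scale, which compresses changes of low counts, limma gave 16 genes more than 4-fold and 7 more than 10-fold lower. The log2 differences on that scale were -3.97 for *EXO1*, -2.32 for *EME1*, and -1.77 for *RAD54B*. Shares of all genes tested are not given for the 10-fold falls or for the counts from limma. Both treated libraries lay below both untreated libraries in 42 genes, as in 32.3% of all genes tested, and above them in 3 (*RNF168*, *TP53BP1*, *NHEJ1*), as in 40.2% of all genes tested. The libraries overlapped in 6.

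**Figure D1:**
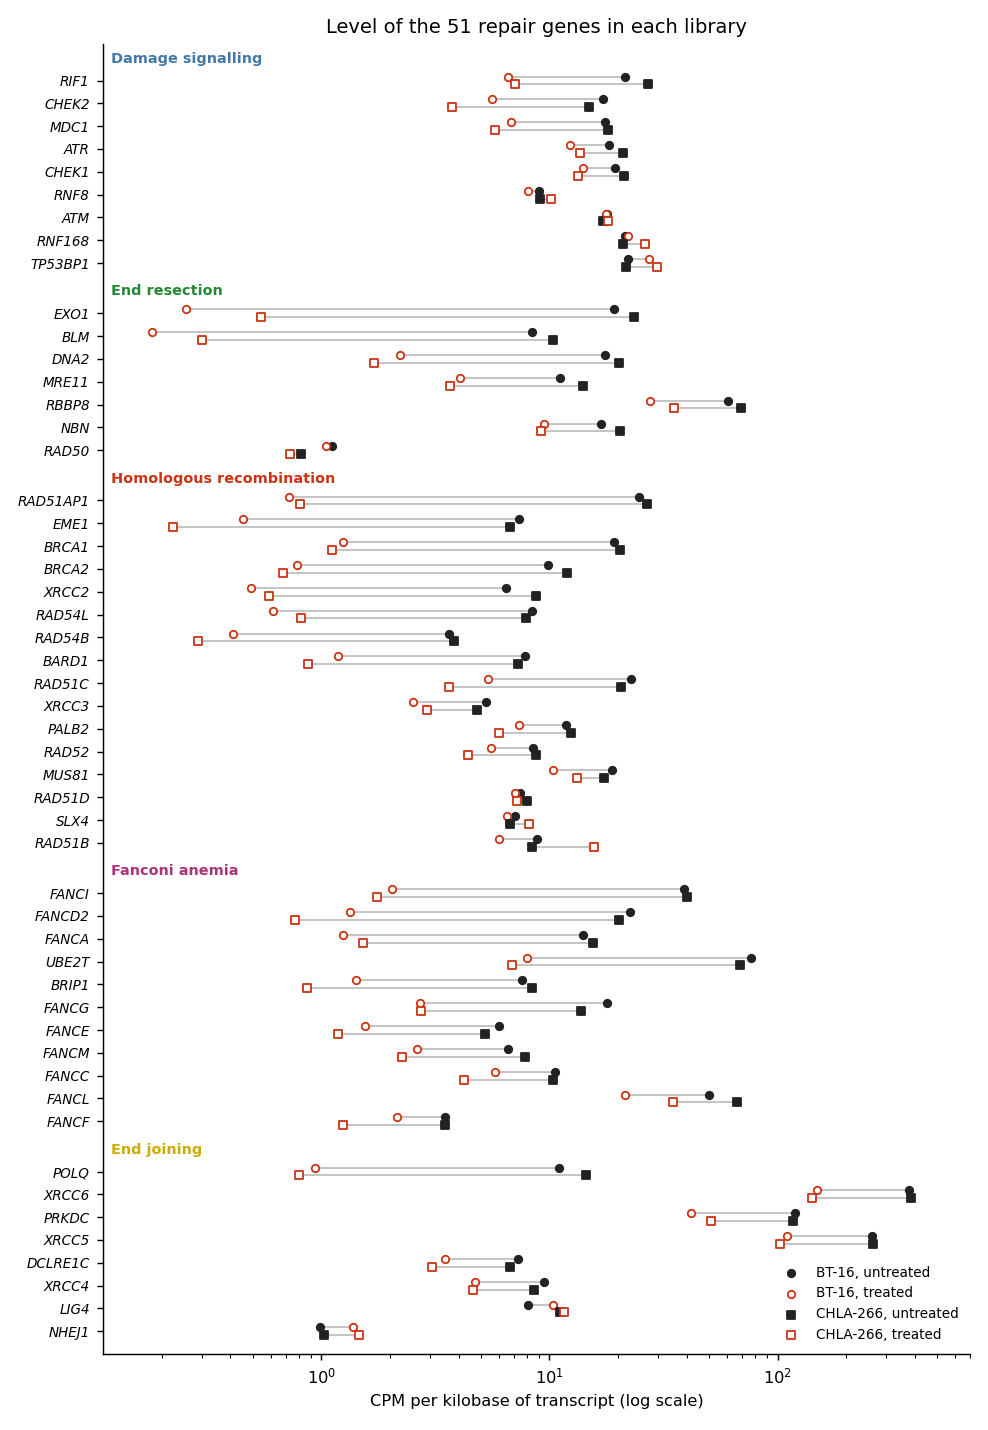
Level of each of the 51 genes in each library, as CPM per kilobase of the canonical transcript on a log axis, with circles for BT-16, squares for CHLA-266, filled symbols for untreated and open symbols for treated libraries, and a line joining the libraries of 1 cell line. The open symbols lie far to the left for *EXO1*, *BLM*, *RAD51AP1*, and *FANCI*, and beside the filled symbols for *ATM*, *RNF8*, and *RAD51D*.

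The pathways differed in how many genes fell and how far. All 11 Fanconi anemia genes were lower, 7 of them more than 4-fold, with a median log2 fold change of -2.53. Homologous recombination had 13 of 16 genes lower, 9 of them more than 4-fold, with a median of -2.57. In end resection, 6 of 7 genes were lower, 3 of them more than 4-fold, with a median of -1.70. End joining had 6 of 8 genes lower but 1 (*POLQ*) more than 4-fold, with a median of -1.20, and damage signalling had 5 of 9 genes lower, none more than 4-fold, with a median of -0.57. The difference between pathways was not tested, since genes are not replicates of a condition.

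Summed per kilobase of transcript, the damage signalling genes stood at 164 and 171 CPM in untreated BT-16 and CHLA-266 cells and at 120 and 128 CPM in treated cells. The Fanconi anemia genes stood at 254 and 260 CPM per kilobase before and at 50.2 and 58.3 after treatment. Damage signalling thereby went from 10.8% and 10.9% of the summed level of all 51 genes to 20.3% and 20.6%, and the Fanconi anemia genes from 16.7% and 16.5% to 8.45% and 9.41%. The end joining genes made up 52.0% and 51.1% before and 54.2% and 51.1% after treatment, so that about the same share of the module was end joining RNA in all libraries. Most of that share came from 3 genes, *XRCC5*, *XRCC6*, and *PRKDC*.

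**Figure D2:**
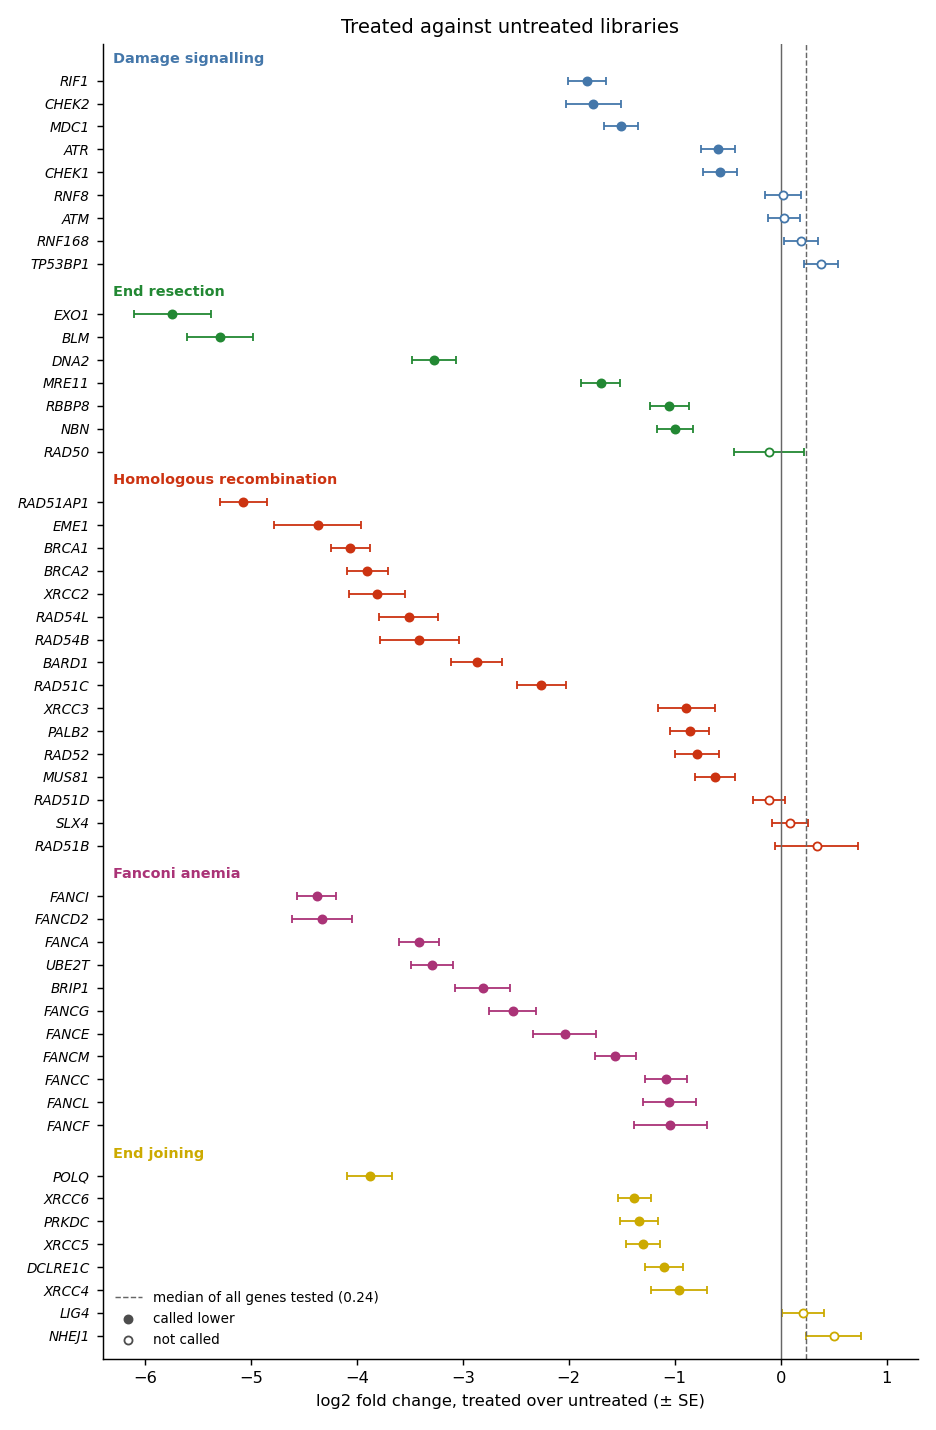
Log2 fold change of each gene, treated over untreated, from edgeR with its standard error as the bar (2 libraries per condition), filled where the gene was called lower and open where it was not called, with the pathways in separate blocks. The Fanconi anemia block holds filled points only, and the points right of 0 are all open.

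Of the 51 genes, *RNF8* and *ATM*, both in damage signalling, had the log2 fold changes nearest to 0 (0.02 and 0.03). Other genes of this pathway fell, down to -1.83 for *RIF1*. *ATM*, the kinase that answers to double-strand breaks, had 15852 and 13687 counts in untreated and 13222 and 12084 counts in treated BT-16 and CHLA-266 cells. The log2 fold change of *ATM* was 0.03 ± 0.15 (SE, adjusted p = 0.893, edgeR), and the levels of the conditions overlapped. Its substrate kinase *CHEK2* had 2170 and 1697 counts before and 599 and 360 counts after treatment, both treated libraries lying below both untreated ones (log2 fold change -1.77 ± 0.26, adjusted p = 0.00139, edgeR). *ATR* and *CHEK1*, the kinase pair that answers to stalled forks, fell by a similar small amount. *ATR* went from 10220 and 10556 to 5808 and 5780 counts (log2 fold change -0.59 ± 0.16, adjusted p = 0.0231, edgeR). *CHEK1* went from 5530 and 5411 to 3347 and 2857 counts (log2 fold change -0.57 ± 0.16, adjusted p = 0.0214, edgeR). Both calls ended under 5 of 13 alternative settings, among them upper-quartile normalization and scaling to library totals.

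The RNA levels of genes whose proteins gather on chromatin beside a break did not move together. *MDC1*, which binds phosphorylated histone H2AX, fell from 8450 and 7785 to 2728 and 2102 counts (log2 fold change -1.51 ± 0.16, adjusted p = 0.000319, edgeR). The ubiquitin ligases that act downstream of it, *RNF8* and *RNF168*, were not called. *RNF8* had 3483 and 3135 counts before and 2628 and 2975 after treatment in BT-16 and CHLA-266 cells (log2 fold change 0.02 ± 0.17, adjusted p = 0.942, edgeR), and *RNF168* had 7877 and 6908 before and 6808 and 7270 after (log2 fold change 0.19 ± 0.16, adjusted p = 0.383, edgeR). *TP53BP1*, which shields ends from resection and was the most abundant signalling gene per kilobase as a mean of the 4 libraries, differed from its partner *RIF1*, which stood above it in untreated CHLA-266 cells (27.1 against 21.7 CPM per kilobase). *TP53BP1* had 15772 and 13865 counts before and 16378 and 15961 counts after treatment, that is 229 and 225 CPM before and 283 and 307 CPM after. Its log2 fold change was 0.38 ± 0.16 with an adjusted p of 0.0898 in edgeR, and blocking on the line gave an adjusted p of 0.0363. *RIF1* fell from 21691 and 24497 to 5583 and 5407 counts (log2 fold change -1.83 ± 0.18, adjusted p = 0.000198, edgeR). Exons of *TUBGCP4* on the other strand cover 36.0% of the *TP53BP1* transcript, and whether reads were counted by strand is not stated.

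Among the resection genes, those for the enzymes of long-range resection fell far more than those for the complex that starts it. *EXO1*, the exonuclease that lengthens the single strand (chromosome 1, 241847967 to 241895148, plus strand, hg38), had 4560 and 4999 counts in untreated and 51 and 98 counts in treated BT-16 and CHLA-266 cells. Its log2 fold change of -5.74 ± 0.36 (adjusted p = 1.17e-05, edgeR) was the lowest of the 51 genes. The helicase *BLM* went from 3026 and 3368 to 55 and 82 counts (log2 fold change -5.29 ± 0.31, adjusted p = 8.21e-06, edgeR). *DNA2*, the nuclease that works with *BLM*, went from 5142 and 5315 to 546 and 376 counts (log2 fold change -3.27 ± 0.21, adjusted p = 1.33e-05, edgeR). For all 3 enzymes the treated libraries lay well below the untreated ones, and for *EXO1* in BT-16 cells and *BLM* in both lines the treated level was at or below the olfactory receptor floor.

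*MRE11*, *RAD50*, and *NBN* form the complex that binds the ends and starts resection. *MRE11* fell from 5236 and 5908 to 1598 and 1305 counts (log2 fold change -1.70 ± 0.18, adjusted p = 0.000291, edgeR). *NBN* fell from 5367 and 5785 to 2516 and 2205 counts (log2 fold change -1.0 ± 0.17, adjusted p = 0.0027, edgeR). *RAD50* had 637 and 415 counts before and 504 and 314 after treatment and was not called (log2 fold change -0.11 ± 0.33, adjusted p = 0.799, edgeR). A readthrough transcript covers 91.0% of the *RAD50* exon sequence on the same strand, so that reads shared by both genes may be missing from its count, and its low level per kilobase (1.12 and 0.815 CPM in untreated cells) is uncertain. *RBBP8*, which encodes CtIP, the cofactor of the complex, was the most abundant resection gene and fell from 13692 and 13983 to 5236 and 5964 counts (log2 fold change -1.05 ± 0.18, adjusted p = 0.00319, edgeR).

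In homologous recombination, the genes of the BRCA1 and BRCA2 axis fell, but not to the same extent. *BRCA1*, a ubiquitin ligase that promotes resection and recombination (chromosome 17, 43044295 to 43170245, minus strand, hg38), had 9323 and 8905 counts before and 512 and 411 counts after treatment. The fall was 16.7-fold (log2 fold change -4.06 ± 0.18, adjusted p = 2.33e-06, edgeR). Its obligate partner *BARD1* fell 7.32-fold, from 2955 and 2464 to 378 and 248 counts. *BRCA2*, which loads the recombinase onto single-stranded DNA, went from 8152 and 8828 to 540 and 423 counts (log2 fold change -3.90 ± 0.19, adjusted p = 3.67e-06, edgeR). *PALB2*, the protein that bridges BRCA1 and BRCA2, fell 1.81-fold, from 3255 and 3066 to 1705 and 1252 counts (log2 fold change -0.86 ± 0.18, adjusted p = 0.00821, edgeR), and upper-quartile normalization ended this call (adjusted p = 0.064). Per kilobase, *PALB2* stood at 1.19 and 1.04 times the level of *BRCA2* in untreated BT-16 and CHLA-266 cells and at 9.42 and 8.83 times in treated cells.

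*RAD51AP1*, an accessory factor of strand invasion, was the recombination gene with the largest fall, from 3586 and 3472 to 88 and 89 counts (log2 fold change -5.07 ± 0.22, adjusted p = 2.33e-06, edgeR). *RAD54L* and *RAD54B*, motor proteins of strand exchange, fell 11.4-fold and 10.6-fold, and *LRRC41* on the other strand covers 26.2% of *RAD54L*. *RAD54B* fell from 769 and 719 to 73 and 46 counts, and 65.5% of its exon sequence is shared with *FSBP* on the same strand. Both treated levels of *RAD54B* were at or below the olfactory receptor floor. *RAD52*, a single-strand annealing factor, fell 1.73-fold, a call that ended under 6 of 13 settings.

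The 4 paralogs that form the BCDX2 complex, which stabilizes the recombinase filament, went apart. *XRCC2* fell from 2133 and 2561 to 136 and 146 counts (log2 fold change -3.81 ± 0.26, adjusted p = 2.16e-05, edgeR). Its treated level in BT-16 cells was at or below the olfactory receptor floor. *RAD51C* fell from 4019 and 3242 to 797 and 484 counts (log2 fold change -2.26 ± 0.23, adjusted p = 0.000231, edgeR). *RAD51D* was not called, with 5109 and 4906 counts before and 4088 and 3733 after treatment (log2 fold change -0.11 ± 0.15, adjusted p = 0.583, edgeR). *RAD51B* (chromosome 14, 67819779 to 68730218, plus strand, hg38) had 944 and 803 counts before and 544 and 1276 counts after treatment. The treated libraries thus lay on either side of the untreated ones (log2 fold change 0.34 ± 0.39, adjusted p = 0.504, edgeR). *XRCC3*, which pairs with *RAD51C* in a second complex, fell 1.86-fold, a call lost under 6 of 13 settings, and 34.2% of its transcript is covered by *KLC1* on the other strand.

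The genes for the nucleases that cut joint molecules also differed. *EME1* fell from 1185 and 965 to 61 and 27 counts (log2 fold change -4.37 ± 0.41, adjusted p = 0.000151, edgeR), and both treated levels were at or below the olfactory receptor floor. Its catalytic partner *MUS81*, the most abundant recombination gene per kilobase as a mean of the 4 libraries but below *RAD51AP1*, *RAD51C*, and *BRCA1* in both untreated ones, went from 3072 and 2525 to 1418 and 1623 counts (log2 fold change -0.62 ± 0.19, adjusted p = 0.0354, edgeR). This call ended under 6 of 13 settings. The scaffold *SLX4* had 3546 and 3025 counts before and 2751 and 3082 after treatment and was not called (log2 fold change 0.09 ± 0.17, adjusted p = 0.7, edgeR). *LRRC59* on the other strand covers 23.2% of the *EME1* transcript.

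**Figure D3:**
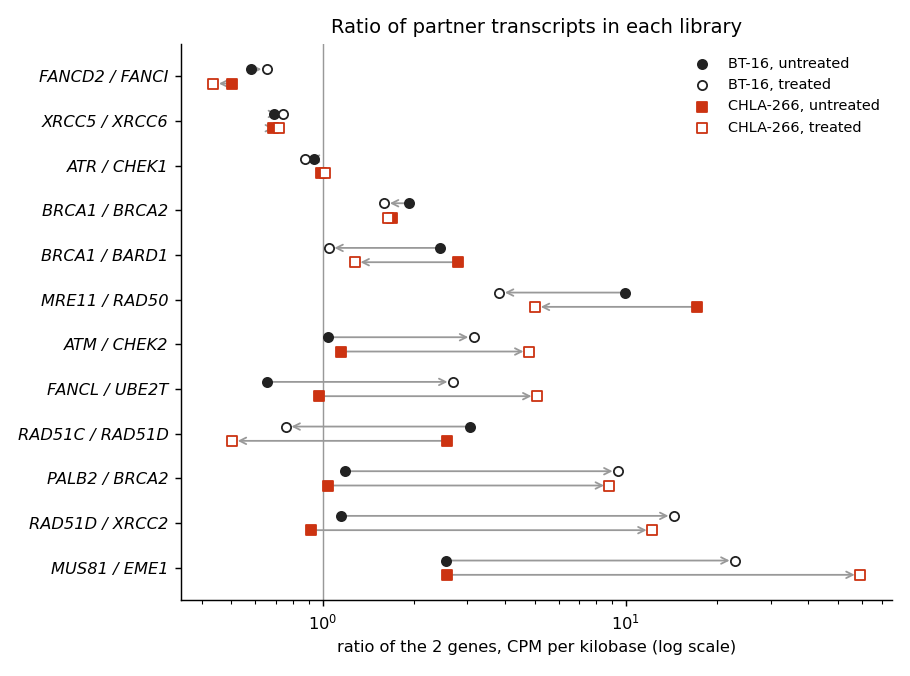
Ratio of the levels of 12 pairs of partner genes in each library, each level as CPM per kilobase, on a log axis, with filled symbols for untreated and open symbols for treated libraries and an arrow from the former to the latter. The pairs were chosen after their values were seen. *FANCD2* to *FANCI* and *XRCC5* to *XRCC6* kept nearly the same ratio, whereas *MUS81* to *EME1* rose from 2.56 to 22.9 in BT-16 cells and from 2.58 to 59.2 in CHLA-266 cells, with treated *EME1* at or below the olfactory receptor floor.

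The Fanconi anemia genes comprise the core complex, the ubiquitin ligase module, the FANCD2 and FANCI pair that it modifies, and downstream factors. *FANCI* (chromosome 15, 89243945 to 89317261, plus strand, hg38) fell from 12676 and 11669 to 560 and 431 counts (log2 fold change -4.38 ± 0.18, adjusted p = 1.92e-06, edgeR). *FANCD2* fell from 7899 and 6315 to 395 and 203 counts (log2 fold change -4.33 ± 0.28, adjusted p = 1.41e-05, edgeR). Per kilobase, *FANCD2* stood at 0.579 and 0.503 times the level of *FANCI* before and at 0.655 and 0.437 times after treatment in BT-16 and CHLA-266 cells.

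The ligase module did not fall alike. *UBE2T*, the conjugating enzyme, fell from 4639 and 3688 to 404 and 313 counts (log2 fold change -3.29 ± 0.20, adjusted p = 9.47e-06, edgeR). *FANCL*, the ligase itself and the most abundant Fanconi anemia gene per kilobase over the 4 libraries, fell from 5734 and 6792 to 2051 and 3008 counts (log2 fold change -1.05 ± 0.25, adjusted p = 0.0127, edgeR), and the call was lost without the untreated CHLA-266 library (adjusted p = 0.0599). *VRK2* on the other strand covers 27.3% of the *FANCL* transcript. Per kilobase, *FANCL* stood at 0.655 and 0.975 times the level of *UBE2T* before and at 2.69 and 5.09 times after treatment.

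In the core complex, *FANCA* fell from 5256 and 5188 to 394 and 430 counts (log2 fold change -3.41 ± 0.19, adjusted p = 7.2e-06, edgeR). *FANCG*, which binds *FANCA*, fell 5.79-fold and *FANCE* fell 4.10-fold, whereas *FANCC* and *FANCF* fell 2.11-fold and 2.06-fold. The call of *FANCF* ended under 8 of 13 settings, the most of any of the 41 genes. *FANCM*, the translocase that anchors the complex to DNA, fell 2.94-fold. *ZNF276* on the other strand covers 27.4% of the *FANCA* transcript. *BRIP1*, a helicase that binds BRCA1, fell 7.0-fold, from 4285 and 4238 to 671 and 368 counts.

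End joining was the most abundant pathway and fell moderately. *XRCC6* (chromosome 22, 41621163 to 41664048, plus strand, hg38) and *XRCC5* encode the Ku ring that is first to bind a broken end. *XRCC6* was the most abundant of the 51 genes per kilobase, at 375 and 383 CPM in untreated and 149 and 142 CPM in treated BT-16 and CHLA-266 cells. Its counts went from 54867 and 50015 to 18270 and 15604 (log2 fold change -1.38 ± 0.16, adjusted p = 0.000489, edgeR). *XRCC5* went from 60670 and 54763 to 21475 and 17927 counts (log2 fold change -1.30 ± 0.16, adjusted p = 0.000682, edgeR). The Ku genes kept their ratio per kilobase, at 0.694 and 0.688 before and 0.738 and 0.721 after treatment. *PRKDC*, the catalytic subunit that Ku recruits, had the most counts of the 51 genes and fell from 110063 and 97106 to 32532 and 35722 counts (log2 fold change -1.34 ± 0.18, adjusted p = 0.000938, edgeR).

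The ligation step divided into a factor that fell and partners that were not called. *XRCC4*, the scaffold of the ligase, fell 1.94-fold, a call that ended under 4 of 13 settings. *LIG4*, the ligase, had 2205 and 2720 counts before and 2398 and 2406 after treatment (log2 fold change 0.21 ± 0.20, adjusted p = 0.434, edgeR). *NHEJ1*, which bridges the ends, had 549 and 509 counts before and 640 and 614 after treatment, with both treated libraries above the untreated ones (log2 fold change 0.50 ± 0.26, adjusted p = 0.171, edgeR). Its level was low, at 0.992 and 1.03 CPM per kilobase in untreated BT-16 and CHLA-266 cells. Another annotated gene on the same strand covers 24.3% of the *NHEJ1* transcript. The nuclease *DCLRE1C* fell 2.15-fold. *POLQ*, the polymerase of the alternative end joining route that starts from resected ends, fell from 6674 and 7797 to 474 and 363 counts (log2 fold change -3.88 ± 0.21, adjusted p = 5.8e-06, edgeR). Its log2 fold change lay beside those of *BRCA1* and *BRCA2*, and the other 7 end joining genes lay between -1.38 and 0.50 on the log2 scale.

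For each line, treated over untreated gave a log2 ratio with an exact 95% Clopper-Pearson interval for counting error and no test, since there was 1 library per line and condition. In both lines the ratio was below 0 with the interval below 0 for 42 genes (32.0% of all genes tested), and in both above 0 for 2 (*TP53BP1*, *NHEJ1*, against 34.8% of all genes tested). Even values prevailed among low counts, and the counting of read pairs is not stated. With halved counts, 41 genes (30.5% of all genes tested) lay below 0 in both lines, since the interval of *RAD51D* in BT-16 cells then reached 0.02, and the same 2 lay above. In 3 genes the lines went opposite ways, with intervals that did not reach 0: *RNF8*, *RAD51B*, and *SLX4*. The share of all genes tested with such opposite intervals is not given, so this count has no baseline. *RAD51B* had a log2 ratio of -0.54 (-0.70 to -0.39) in BT-16 cells and of 0.91 (0.78 to 1.04) in CHLA-266 cells. The ratios of *RNF8* were -0.15 (-0.23 to -0.08) and 0.17 (0.10 to 0.24), and those of *SLX4* were -0.11 (-0.18 to -0.04) and 0.27 (0.20 to 0.34). With halved counts these intervals widened without reaching 0 (to -0.21 and -0.01 for *SLX4* in BT-16 cells, the one nearest to 0). Among the genes that fell in both lines, *EXO1* had a ratio of -6.21 and -5.42 and *BRIP1* one of -2.42 and -3.28 (BT-16 first).

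**Figure D4:**
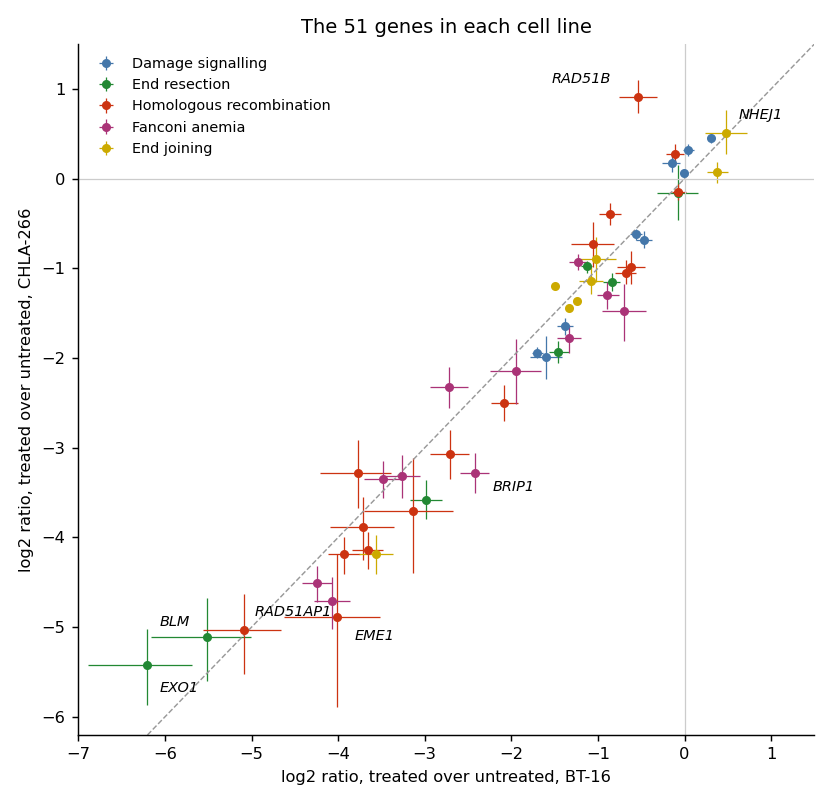
Log2 ratio of treated to untreated in BT-16 (x axis) and CHLA-266 cells (y axis) for the 51 genes, colored by pathway, with exact 95% intervals for counting error from halved counts as bars and a dashed line of equal ratios. The points follow the line from *EXO1* to *NHEJ1*, and *RAD51B* lies above it at -0.54 and 0.91.

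Between the lines, with the condition in the model, 1 of 51 genes was called different, where 2.30% of all genes were called. *FANCL* was higher in CHLA-266 cells, at 110 CPM untreated and 57.9 CPM treated against 83.1 and 35.5 CPM in BT-16 cells. The log2 fold change, CHLA-266 over BT-16, was 0.56 with an adjusted p of 0.0484 in edgeR, and no gene was called when genes needed 10 counts in every library or with DESeq2.

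Further genes of the same pathways were more often lower than higher. Of 66 such genes, 35 (53.0%, against 19.1% of all genes tested) were lower and 1 was higher, with a median log2 fold change of -0.88. By pathway, the medians were -1.43 in end resection, -0.94 in the Fanconi anemia pathway, and -0.90 in homologous recombination. They were -0.65 in damage signalling and -0.23 in end joining. Among the 51 genes the medians in this order were -1.70, -2.53, -2.57, -0.57, and -1.20, so the pathways ranked differently. In damage signalling 8 of 16 were lower, led by *H2AX*, the histone variant marked at breaks (log2 fold change -2.96), and *CLSPN*, the adaptor of CHEK1 (-2.63). In end resection 9 of 11 were lower, among them all 3 subunits of the single-strand binding protein RPA (*RPA1* -1.93, *RPA2* -1.76, *RPA3* -2.89 on the log2 scale). In homologous recombination 6 of 14 were lower, led by *FIGNL1* (-3.25) and the helicase *MCM8* (-3.22), in the Fanconi anemia pathway 8 of 14, led by *CENPX* (-3.23), and in end joining 4 of 11, led by *PARP1* (-1.23). The gene that rose was *APLF*, an end joining scaffold, from 157 and 180 to 384 and 402 counts in BT-16 and CHLA-266 cells (log2 fold change 1.47 ± 0.37, adjusted p = 0.0157, edgeR).

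Other repair pathways are given beside these for comparison, where 19.1% of all genes tested were lower and 16.1% were higher. In mismatch repair 6 of 7 genes were lower (median log2 fold change -1.03), led by *MSH6* (-2.07). In base excision repair 8 of 16 were lower (median log2 fold change -0.63), led by the glycosylase *NEIL3* (-4.78) and the ligase *LIG1* (-3.29). In nucleotide excision repair 3 of 12 were lower and 1, *ERCC6*, was higher (0.78), with a median log2 fold change of -0.38. The median of the 51 genes (-1.38) was below each of these, that of the 66 further genes (-0.88) was above that of mismatch repair, and 85.7% of the mismatch repair genes were lower against 80.4% of the 51. The difference between lists was not tested.

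Promoter sequences from RefSeq (GRCh38.p14, 250 bases before to 50 after a start) were searched on both strands for E2F-type letters, and the matches are shown because these genes are commonly described as E2F targets. Windows were found for 45 of the 51 genes. The letters TTTCCCGC, TTTGGCGC, TTTCGCGC, or TTTGCCGC stood in a window of 6 of 45 genes (13.3%), as in 5.55% of the 14383 tested genes with a window. Of the genes that fell more than 4-fold, 4 of 17 (23.5%) held a match, of the other genes called lower 2 of 18 (11.1%), and of those not called 0 of 10. These shares rest on few genes, and the difference between them was not tested. Each stretch is 30 bases, 5′ to 3′ on the strand of the gene, with the match in capitals.

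EXO1, chr1:241848197-241848226, plus strand: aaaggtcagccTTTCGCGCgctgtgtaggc
FANCD2, chr3:10026424-10026453, plus strand: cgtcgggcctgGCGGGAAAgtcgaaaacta
XRCC2, chr7:152676102-152676131, minus strand: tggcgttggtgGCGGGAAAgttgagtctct
FANCA, chr16:89816801-89816830, minus strand: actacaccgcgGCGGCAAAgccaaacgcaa
XRCC6, chr22:41621315-41621344, plus strand: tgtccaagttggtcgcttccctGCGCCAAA
FANCC, chr9:95317737-95317766, minus strand: ttcgtcggaatTTTCCCGCgacgccgcggg
FANCC, chr9:95317863-95317892, minus strand: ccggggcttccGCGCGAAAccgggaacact

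Counted from the start site, with the base before it as -1, the matches begin at 5 in *EXO1*, -2 in *FANCD2*, 22 in *XRCC2*, -172 in *FANCA*, 43 in *XRCC6*, and -46 and -172 in *FANCC*. Matches at positions above 0 lie in the first exon of the transcript that starts there. *FANCD2* and *XRCC2* share the letters GCGGGAAA near their start and fell 20.2-fold and 14.0-fold, whereas *FANCC*, with a pair of matches, fell 2.11-fold. *BRCA1*, *BRCA2*, *BLM*, and *RAD51AP1*, which fell as far, held none in these windows. The letters TTTGAA or TTTAAA, of the cell cycle homology region, stood in 26.7% of the genes and 24.5% of the tested genes, and CCAAT in 53.3% and 42.2%. Both together stood in 17.8% and 12.6%. A match is a description of the sequence, not a site in use.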

How the data were processed

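RNA was sequenced from untreated and treated BT-16 and CHLA-266 cells (SMART-Seq Stranded kit). Per the labels and the methods, bcl2fastq 2.20 and STAR on hg38 were used, and the authors counted reads per gene, assigned symbols, and removed genes of the sex chromosomes and genes counted repeatedly. The authors deposited estimated counts per gene without normalization, of which 5 values (2 genes) had decimals and were taken to the nearest integer. The authors deposited log2 values from the variance-stabilizing transformation of DESeq2 too (VST), which entered 1 alternative. How pairs and strands were counted is not given in the sources used here.

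The genes and lists were chosen with earlier results of these data known, and the partner pairs after their values were seen. Samples were grouped by the treatment label. All 18066 genes with a nonzero total were fitted with edgeR 4.0.16 (quasi-likelihood test, TMM, two-sided, Benjamini-Hochberg over all genes) in R 4.3.3 with the condition as the single term. p values therefore measure the spread between 2 libraries per condition. The untreated and treated library of a cell line are paired by the line itself, and over 12620 genes their deviations from the means of each condition correlated at 0.263. An exact permutation test of 2 against 2 libraries cannot go below a two-sided p of 0.333 and was not used. Ratios within a line used TMM-normalized counts with 0.5 counts added, and intervals cover counting error only. CPM per kilobase used the canonical transcript of GENCODE 44. The scripts were tested on simulated data. Full statistics were given, per pathway, for up to 4 called genes of smallest adjusted p, the most abundant gene, every gene with opposite ratios in the lines, and the gene called between lines, with further genes chosen for their partners after values were seen. A marker in the list of other cell types is not reported here. Lists other than the 51 genes were named by at most 4 genes of largest change or level, except that the 7 markers of blood, immune, and endothelial cells are all named. Alternatives were a block on the cell line, DESeq2 1.42.0 (without and with that block), other scalings and filters, limma 3.58.1 on the VST values, and each library left out.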

Additional observations from a re-analysis of the deposited data

Results flagged for a closer look

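*RAD51B*, *RNF8*, and *SLX4* had log2 ratios of treated to untreated of opposite sign in the cell lines, with exact intervals for counting error on opposite sides of 0. The ratios in BT-16 and CHLA-266 cells were -0.54 and 0.91 for *RAD51B*, -0.15 and 0.17 for *RNF8*, and -0.11 and 0.27 for *SLX4*. Each ratio rests on 1 library per condition, and the difference between the lines was not tested. How many of all genes tested had such opposite intervals is not given.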

How the results depend on the processing

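Of the 41 genes called lower, 32 were called under all 13 alternatives of scaling, filter, tool, block, and library left out, and all 41 kept their direction. With 1 library left out, the lone library of a condition is assumed to vary like the 2 of the other, which alone give the spread. The number lower was between 33 (upper-quartile normalization, and without the untreated CHLA-266 library) and 41, and 33 of the 41 also had an absolute log2 fold change of at least 1. The number higher was 1 (*TP53BP1*) with the cell line as a block, with DESeq2 with and without the block, with DESeq2 size factors, library totals, a minimum of 10 counts, and limma, and 3 (*RNF168*, *TP53BP1*, *NHEJ1*) with upper-quartile normalization. With 1 library left out it was 0 to 1, and the 1 gene was *RAD51B* without the treated BT-16 library (0.88). The block on the cell line changed no other call of the 51 genes. With limma on the VST values, 7 genes fell more than 10-fold against 13. The median of the 51 genes was -1.04 with upper-quartile normalization, -1.15 with library totals, and -1.20 with a minimum of 10 counts, where the median of all genes tested went from 0.24 to 0.59, 0.46, and 0.01. Genes called between the lines numbered 2 with DESeq2 size factors and 0 with a minimum of 10 counts and with DESeq2. Leaving out a library there left no residual degrees of freedom and was not run.

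Among genes that were not called, the direction turned for *RAD50* (0.24, 0.12, 0.08) and *RAD51D* (0.24, 0.12, 0.07) with upper-quartile normalization, library totals, and a minimum of 10 counts. With 1 library left out, *RAD50* ranged from -0.40 to 0.14 (0.13 without untreated BT-16), *RNF8* from -0.15 to 0.18, *RAD51B* from -0.49 to 0.88, *SLX4* from -0.07 to 0.24, and *LIG4* from -0.01 to 0.46. The cause of these changes was not tested.

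With 1 library per line and condition, a difference in response between the lines could not be tested. The precision of ratios within a line is set by the counts, which were fewest for *EME1* (27) and *RAD54B* (46), both in treated CHLA-266 cells.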
